A study of Mus musculus with 16 samples.

Results

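The genes described here are 10 transcripts of the unfolded protein response of the endoplasmic reticulum (ER): Hspa5, Hsp90b1, Xbp1, Dnajb9, Sdf2l1, Pdia4, Creld2, Manf, Herpud1 and Calr. They were taken by symbol from the 27288 gene identifiers of the deposited table, and each of the 10 was found. All 10 passed the filter on low values, so none was dropped from the tests. RNA from mouse liver was sequenced in 16 libraries, 4 in each of 4 groups. All mice were C57BL/6 and 8 to 10 weeks old. The groups were wild type on control feeding, wild type under the Gao-Binge model, and the same pair of feeding conditions for mice whose genotype is labelled L-Dnm1l KO, a liver-specific knockout of Dnm1l. Dnm1l encodes DRP1, the dynamin-related GTPase that divides mitochondria. The Gao-Binge model joins a period on an ethanol diet with a single large dose of ethanol given at its end. The labels call the wild type mice paired with the knockouts. They do not say which promoter drives the deletion, nor that each library came from its own mouse, so p-values measure the spread between these libraries, which may be technical.

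The unfolded protein response is the set of signals by which a cell matches the folding capacity of its ER to the load of proteins entering it. In the ER membrane, 3 sensors start it. IRE1 splices the mRNA of Xbp1 into the form that encodes an active transcription factor, ATF6 is cleaved to release another, and PERK slows translation and raises ATF4. Hepatocytes secrete most of the plasma proteins, and the liver is an organ in which this response has long been studied. The ATF6 and XBP1 factors act on promoters that carry the ER stress response element (ERSE), CCAAT and CCACG with 9 bases of any kind between them, or a shorter relative, ERSE-II, ATTGG and CCACG with 1 base between them.

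Promoter windows of 9 of the 10 genes, all but Manf, were found in a RefSeq table on GRCm38.p6. Each ran from 250 bases before to 50 bases after the transcription start. An ERSE with no mismatch was found on either strand in 4 of the 9, those of Hspa5, Hsp90b1, Creld2 and Calr, against 39 of all 32851 windows in the table (0.119%). Of 81 genes of the wider pathway described below that had a window, 6 held one: Dnajc3, Canx, Pdia6, Ero1b, Syvn1 and Derl3. An ERSE-II was found in 1 of the 9, that of Herpud1, against 12 of all windows (0.0365%). The 10 genes were chosen as genes of the response that these elements are known for. Their matches are thus no independent evidence, and enrichment was not tested. The 5 windows with an ERSE or ERSE-II are shown because they hold the element the response is known for, and because their genes differed widely in the comparisons that follow. They are chr2:34771840-34772139 on the plus strand for Hspa5, chr10:86705395-86705694 on the minus strand for Hsp90b1, chr15:88819396-88819695 on the plus strand for Creld2, chr8:84846882-84847181 on the minus strand for Calr and chr8:94386179-94386478 on the plus strand for Herpud1. Capitals mark the ERSE, or in Herpud1 the ERSE-II, and each window is written 5′ to 3′ along its gene's own strand.
Hspa5: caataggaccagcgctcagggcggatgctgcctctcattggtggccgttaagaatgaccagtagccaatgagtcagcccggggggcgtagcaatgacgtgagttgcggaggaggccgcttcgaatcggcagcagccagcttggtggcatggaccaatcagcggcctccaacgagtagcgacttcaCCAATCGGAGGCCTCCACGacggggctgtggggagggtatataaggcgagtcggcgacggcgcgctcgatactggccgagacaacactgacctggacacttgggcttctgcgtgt
Hsp90b1: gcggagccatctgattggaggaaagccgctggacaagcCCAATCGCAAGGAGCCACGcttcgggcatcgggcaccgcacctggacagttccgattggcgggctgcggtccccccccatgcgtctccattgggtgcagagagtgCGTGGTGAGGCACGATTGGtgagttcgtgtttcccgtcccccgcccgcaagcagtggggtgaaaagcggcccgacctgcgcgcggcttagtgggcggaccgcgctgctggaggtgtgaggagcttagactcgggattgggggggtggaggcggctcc
Creld2: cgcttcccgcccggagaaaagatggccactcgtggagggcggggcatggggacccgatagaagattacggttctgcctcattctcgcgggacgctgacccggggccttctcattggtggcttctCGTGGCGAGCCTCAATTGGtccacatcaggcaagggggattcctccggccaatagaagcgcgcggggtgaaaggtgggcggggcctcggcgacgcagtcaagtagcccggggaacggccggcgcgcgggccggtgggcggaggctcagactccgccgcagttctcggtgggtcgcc
Calr: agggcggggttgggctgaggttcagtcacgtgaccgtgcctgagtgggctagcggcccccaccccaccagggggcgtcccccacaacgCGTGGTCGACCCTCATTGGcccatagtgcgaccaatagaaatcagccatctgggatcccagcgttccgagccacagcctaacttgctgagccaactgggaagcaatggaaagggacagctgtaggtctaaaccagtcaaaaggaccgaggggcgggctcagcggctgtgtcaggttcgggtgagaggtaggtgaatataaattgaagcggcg
Herpud1: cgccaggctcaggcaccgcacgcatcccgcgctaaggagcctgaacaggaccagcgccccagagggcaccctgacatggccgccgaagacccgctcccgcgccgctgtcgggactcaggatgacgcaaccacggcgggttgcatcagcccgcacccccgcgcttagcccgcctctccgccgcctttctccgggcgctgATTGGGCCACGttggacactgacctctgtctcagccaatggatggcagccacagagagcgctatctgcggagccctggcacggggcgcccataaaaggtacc

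With the first transcribed base counted as 1 and the base before it as -1, the ERSE of Hspa5 ran from -65 to -47. Hsp90b1 held 2 of them, from -212 to -194 and, on the opposite strand, from -107 to -89. The element of Creld2 lay on the opposite strand from -126 to -108, and that of Calr on the opposite strand from -162 to -144. The ERSE-II of Herpud1 ran from -52 to -42. With up to 1 mismatch in the fixed letters, 6 of the 9 windows held an ERSE, Pdia4 and Herpud1 being added, against 1.5% of all windows. The parts of the element are common by themselves: CCAAT was in 8 of the 9 windows and 37.4% of all, and CCACG was in 8 of the 9 and 32.8% of all. The UPR element TGACGTGG, which holds CCACG on its other strand, was in none of the 9 and in 0.676% of all. None of these letters was in the window of Xbp1. A match describes the sequence and does not show that a factor bound there.

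**Figure D1:**
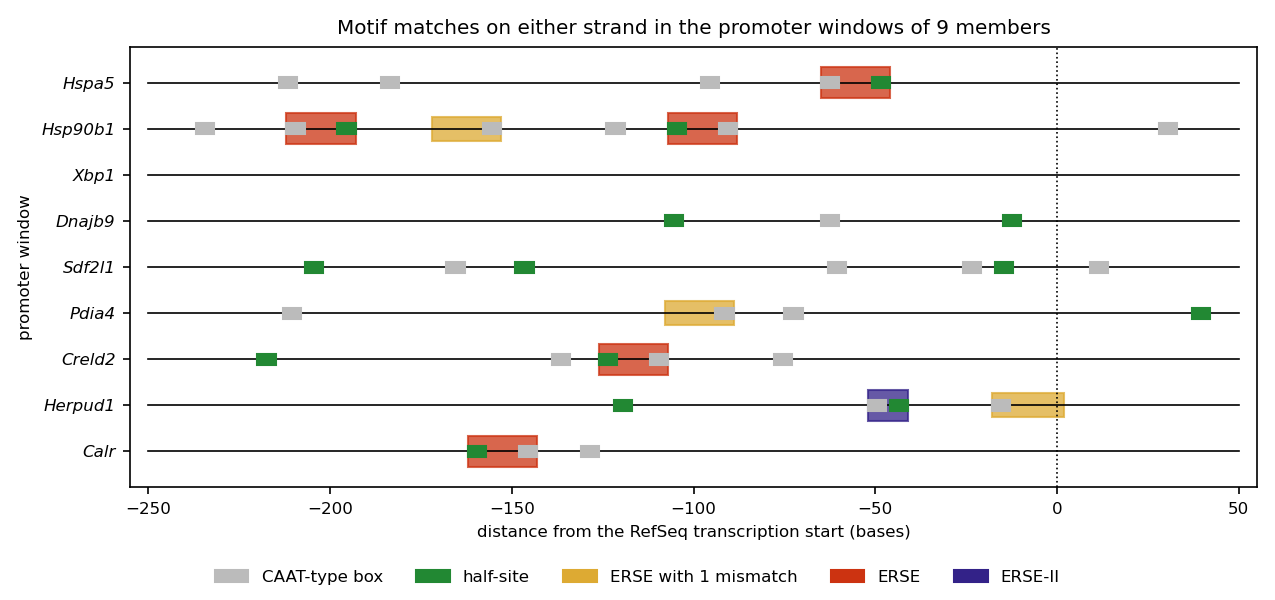
Motif matches in the 9 promoter windows, with the distance from the RefSeq transcription start in bases on the horizontal axis and 1 line per gene. Red boxes are ERSE matches, the blue box an ERSE-II, yellow boxes an ERSE with 1 mismatch, grey and green boxes the CCAAT and CCACG parts. A red box stands in Hspa5, Hsp90b1, Creld2 and Calr and a blue box in Herpud1.

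Several libraries stood apart, and this touches what follows. Total Dnm1l reads did not separate the genotypes: normalised reads were 580.6 to 707.0 in wild type and 538.6 to 708.7 in libraries labelled knockout on control feeding, and 697.4 to 777.6 and 730.1 to 949.1 after ethanol. A deletion of some exons can leave the rest of a transcript in place, so this total does not check the labels, and the second genotype is called "labelled knockout" throughout. Hepatocyte markers were high in all 16 libraries, with Alb between 718685 and 1266037. Among the libraries labelled knockout after ethanol, library 1 held exocrine pancreas transcripts at a summed level of 11095, against at most 320.1 elsewhere. Library 4 of this group held erythroid transcripts at 6158, against 1122 to 2969 elsewhere. The excess was in the globin genes of this list. Its other marker, Alas2, read 814.1 in library 4, against 263.9 to 1171 elsewhere. Libraries 1 and 4 also held the adipose transcripts Adipoq (9.84 and 18.3) and Plin1 (5.90 and 21.2), which read 0 in every other library. The other adipose markers listed did not set library 1 apart. Cfd read 17.7 and 120.3 in libraries 1 and 4, against up to 69.2 elsewhere. Fabp4 read 265.6 and 382.0, against up to 456.8 elsewhere. Ethanol libraries 1 and 2 were above 3 and 4 of their genotype for Tat, an amino acid catabolic enzyme of hepatocytes, which was singled out after its values were seen. It read 72884, 68233, 14253 and 33909 in wild type libraries 1 to 4 after ethanol, and 24106, 42373, 11254 and 14395 in those labelled knockout. Of the other hepatocyte markers, Alb, Ttr, Serpina1a and Fgb split the same way in their values in both genotypes. Fgb read 289146, 246835, 45629 and 85721 in wild type libraries 1 to 4 after ethanol. In those labelled knockout it read 126734, 94437, 59726 and 42898. Apoa1 did not split this way: it was higher in library 4 than in library 2 in both ethanol groups. Results for the 10 genes after ethanol are given with and without these libraries where the text turns on them. In RNA from whole liver, fewer cells of a type and less RNA per cell cannot be told apart.

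In wild type liver, the ethanol model raised 6 of the 10 genes, with none called lower. They were the chaperones Hspa5 and Hsp90b1, the cochaperones Dnajb9 and Sdf2l1, the transcription factor gene Xbp1, and Creld2, which encodes an ER-resident protein with EGF-like domains. A gene was called where limma's Benjamini-Hochberg adjusted p over all 13256 tested genes was under 0.05, and 18.9% of all tested genes were called higher in the same comparison. The median log2 fold change was 0.69 over the 10 genes and -0.01 over all tested genes. The 10 log2 fold changes ran from -0.06 to 1.88. Pdia4, Manf, Herpud1 and Calr did not pass.

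Creld2 had the largest of these changes (ENSMUSG00000023272, chromosome 15, 88819646 to 88826683, plus strand). Its normalised reads in wild type were 268.2, 311.2, 498.0 and 361.2 on control feeding and 2459, 1678, 692.0 and 969.6 after ethanol. Every ethanol library lay above every control library, which held for 1 of the 10 genes against 17.7% of all tested genes. The rise was 3.68-fold (log2 1.88 ± 0.32 SE, n = 4 libraries per group, limma adjusted p = 0.000275). It remained past the threshold in each of the 20 other fits made, with adjusted p from 5.09e-09 to 0.0098.

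Hspa5 encodes BiP, the main HSP70 chaperone of the ER lumen and the protein that holds the sensors in check (chromosome 2, 34771970 to 34777547, plus strand). Its wild type libraries read 7731, 9970, 14476 and 10957 on control feeding and 35714, 24237, 12217 and 19826 after ethanol. Libraries 1, 2 and 4 of the ethanol group were above all controls, and library 3 lay inside the control range. The change was 2.03-fold (log2 1.02 ± 0.25 SE, limma adjusted p = 0.0045). Hsp90b1, the HSP90 of the ER, followed the same order of libraries. It read 6874 to 9777 on control feeding and 18792, 14328, 9434 and 11677 after ethanol, a 1.63-fold rise (limma adjusted p = 0.00475).

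Xbp1 reads count the whole gene, so the unspliced and spliced forms are summed. Wild type libraries read 3299, 3831, 3717 and 3817 on control feeding and 11573, 6548, 3143 and 5752 after ethanol. Control libraries were tight, while the ethanol libraries spread from below the lowest control to well above the highest. The change was 1.66-fold (log2 0.73 ± 0.26 SE, limma adjusted p = 0.0339), and it did not pass when any of the 4 wild type control libraries, or ethanol library 1 or 2, was left out (adjusted p 0.0546 to 0.119). Without ethanol library 3, the lowest, the adjusted p was 0.000558 and the log2 change 1.05.

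Dnajb9, a J-domain partner of BiP that restrains IRE1, read 988.9, 1069, 1459 and 1302 in wild type controls and 2452, 2272, 1343 and 1766 after ethanol. Its rise was 1.60-fold (limma adjusted p = 0.00797). Sdf2l1, another lumenal partner of BiP complexes and the gene with the fewest reads of the 10, read 195.2, 254.5, 169.0 and 98.6 in controls and 664.6, 382.2, 146.8 and 333.6 after ethanol. Here too library 3 lay among the controls. The Sdf2l1 change was 1.96-fold (limma adjusted p = 0.0336), and it did not pass without control library 3 or 4 or without ethanol library 1, 2 or 4 (adjusted p 0.0569 to 0.126).

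The 4 genes that did not pass split in their values. Manf, a BiP-binding protein that can be secreted under ER stress, read 830.2 to 1783 on control feeding and 3254, 2400, 1046 and 1746 after ethanol, a log2 difference of 0.67 ± 0.30 SE (limma adjusted p = 0.0860). It passed without control library 3 (adjusted p = 0.0439) and without ethanol library 3 (adjusted p = 0.00825). Pdia4, a disulphide isomerase, had a log2 difference of 0.09 (95% interval -0.31 to 0.49). Calr, a lectin chaperone and calcium store, had -0.06 (95% interval -0.40 to 0.27). Herpud1, a membrane scaffold of ER-associated degradation, had 0.24 (95% interval -0.50 to 0.98), the widest interval of the 10. Calr and Herpud1 both carry an element of the ERSE family in the windows shown, as do Hspa5, Hsp90b1 and Creld2, which rose.

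**Figure D2:**
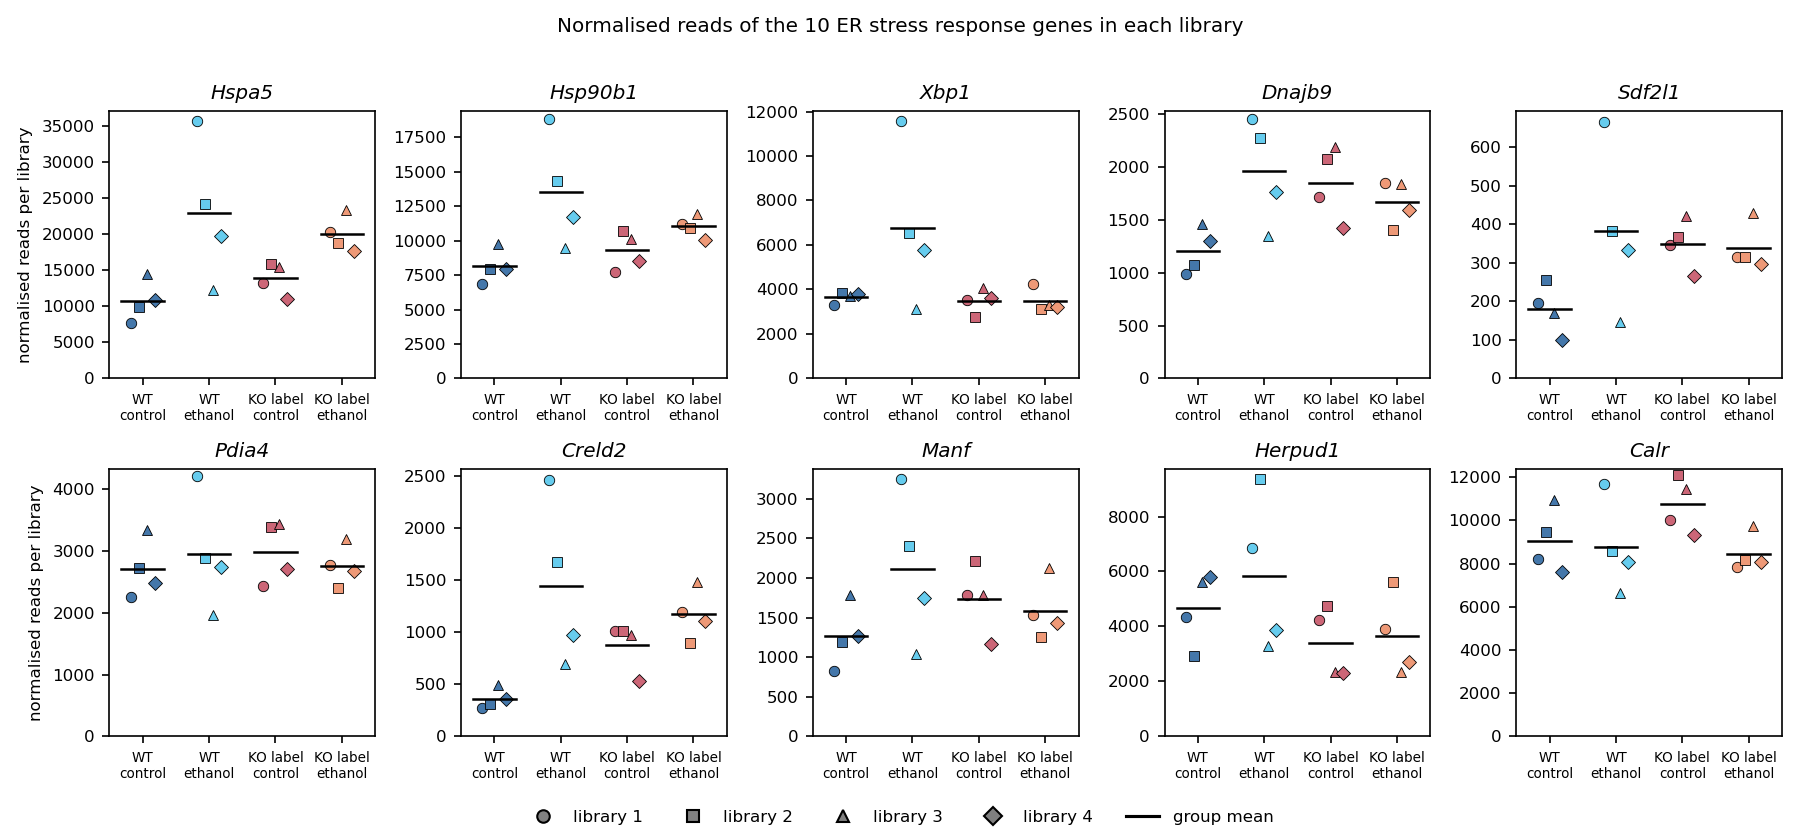
Normalised reads (vertical axis, 1 scale per gene, from 0) of the 10 genes in each library, by group on the horizontal axis; marker shape gives the library number and the line the group mean. In wild type after ethanol, library 1 is the highest of its group for 9 of the genes and library 3 the lowest for all 10, and the ethanol libraries labelled knockout lie closer together.

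Which ethanol libraries entered the fit changed the count of called genes. With ethanol libraries 1 and 2 of both genotypes alone, 7 of the 10 passed in wild type. With libraries 3 and 4 alone, 1 passed, Creld2 at a log2 change of 1.22 (adjusted p = 0.0098). Hspa5 then had 0.57 (adjusted p = 0.131), Hsp90b1 0.38 (adjusted p = 0.129) and Dnajb9 0.37 (adjusted p = 0.187). Kupffer cell and macrophage markers moved the other way in this comparison: 9 of 10 were called lower, with a summed level of 2936 to 6432 in control and 1085 to 1612 in ethanol libraries. Plasma cell and B cell markers summed to 209.7 to 553.5 and 99.0 to 167.1, and 1 of the 3 tested, Ighm, was called lower. The part of these cells in the differences was not tested.

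In libraries labelled knockout, limma called none of the 10 genes changed by ethanol, against 19.2% of all tested genes. At an unadjusted limma p under 0.05 there was 1, Calr, against 4523 of all 13256 tested genes, and edgeR and DESeq2 also called 0 of the 10. The median log2 difference over the 10 was -0.02, and over all tested genes -0.01. Hspa5 came closest to rising: libraries read 13270, 15923, 15487 and 10965 on control feeding and 20291, 18842, 23349 and 17652 after ethanol. Its groups did not overlap, the only such case among the 10, while 11.7% of all tested genes had every ethanol library above every control. The Hspa5 log2 difference was 0.53 ± 0.25 SE (limma adjusted p = 0.147), and it passed where the fit held these 2 groups alone (adjusted p = 0.0357).

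Creld2 read 1012, 1016, 971.4 and 528.6 on control feeding and 1194, 897.0, 1488 and 1113 after ethanol in these libraries. Its groups overlapped, and the log2 difference was 0.44 ± 0.32 SE (limma adjusted p = 0.354). Xbp1 read 3511, 2752, 4070 and 3595 on control feeding and 4257, 3103, 3293 and 3227 after ethanol, a log2 difference of 0.00 (95% interval -0.55 to 0.54). The highest of its ethanol libraries was library 1, the one with pancreas transcripts. Without libraries 1 and 4 the Xbp1 difference was -0.11 (adjusted p = 0.87) and the Hspa5 difference 0.61 (adjusted p = 0.276). The calcium-binding chaperone Calr had the lowest value of the 10, -0.34 ± 0.16 SE (limma adjusted p = 0.134). Dnajb9, Sdf2l1, Pdia4 and Manf lay between -0.14 and -0.04, Herpud1 at 0.09 and Hsp90b1 at 0.26, none past the threshold.

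**Figure D3:**
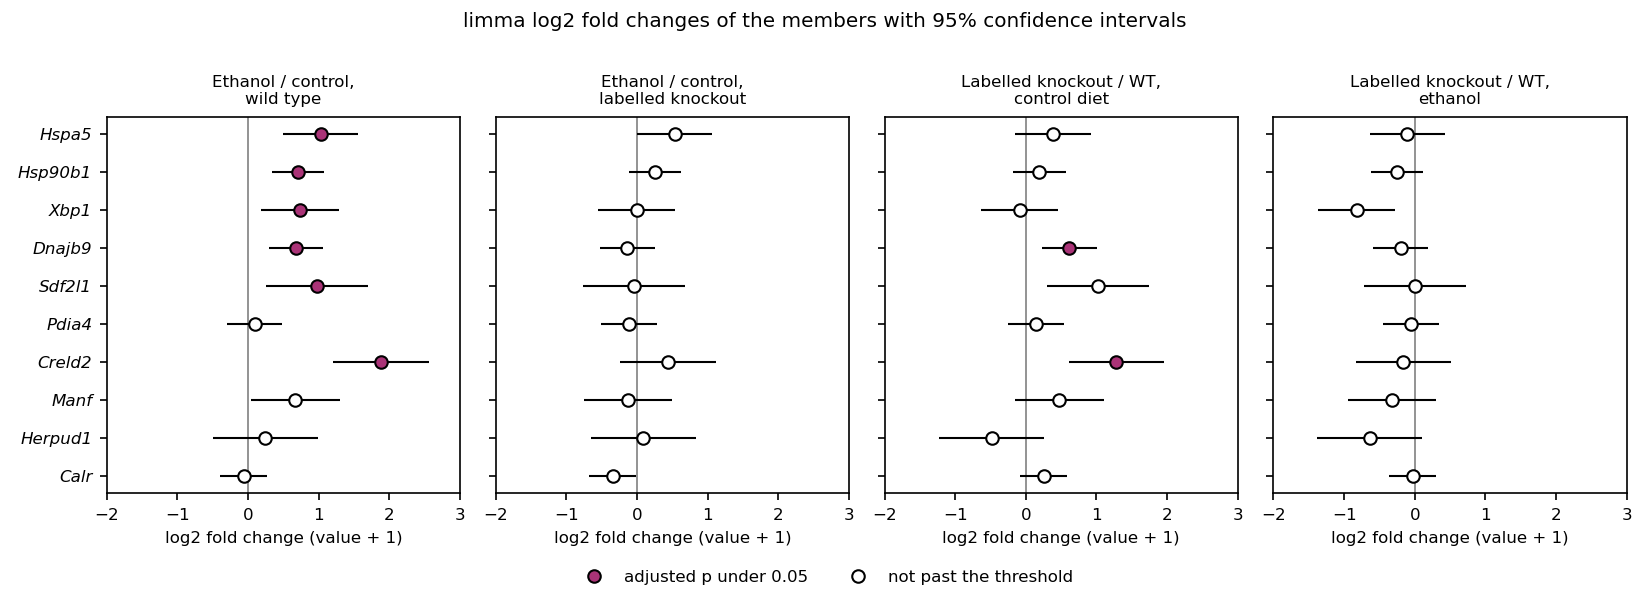
Log2 fold changes on the scale of value + 1 (horizontal axis) of the 10 genes (rows) in 4 comparisons, with 95% confidence intervals from limma; filled points have an adjusted p under 0.05. There are 6 filled points for ethanol in wild type, 2 for genotype on control feeding (Dnajb9 and Creld2) and none in the other panels.

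On control feeding, 2 of the 10 genes were higher in the libraries labelled knockout and none was lower; 6.40% of all tested genes were called higher. Creld2 was 2.43-fold higher (log2 1.28 ± 0.32 SE, limma adjusted p = 0.0158), from 359.6 ± 99.7 (SD, n = 4) in wild type to 882.0 ± 236 in libraries labelled knockout. Dnajb9 was 1.53-fold higher (log2 0.62 ± 0.18 SE, limma adjusted p = 0.0380), with 1719, 2077, 2184 and 1424 in libraries labelled knockout. Of these 4, 3 lay above every wild type control and library 4 did not. For Creld2 the groups did not overlap.

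The groups also did not overlap for Sdf2l1, which read 347.1, 366.4, 419.9 and 265.6 in libraries labelled knockout and at most 254.5 in wild type. Its difference of 2.03-fold did not pass (log2 1.02 ± 0.34 SE, limma adjusted p = 0.0629). Groups that did not overlap in this direction thus made up 2 of the 10 genes and 8.68% of all tested genes. The other 7 genes did not pass: log2 differences were 0.47 for Manf, 0.39 for Hspa5, 0.25 for Calr, 0.19 for Hsp90b1, 0.15 for Pdia4, -0.09 for Xbp1 and -0.48 for Herpud1. The median over the 10 was 0.32, and -0.01 over all tested genes.

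The Dnajb9 call on control feeding did not pass without wild type control library 1, 2 or 4, or without library 1, 2 or 3 labelled knockout (adjusted p 0.0549 to 0.113), nor with the replicate number as a block (adjusted p = 0.0602). Creld2 missed the threshold in 1 case, without wild type control library 1 (adjusted p = 0.0526). Sdf2l1 passed without wild type control library 2 (adjusted p = 0.0438) and with DESeq2 (adjusted p = 0.0306). In the same comparison 7 of 10 Kupffer cell and macrophage markers were called higher, and their summed level was 6997 to 11222 in libraries labelled knockout against 2936 to 6432 in wild type. Plasma cell and B cell markers summed to 232.9 to 768.8 against 209.7 to 553.5, and 1 of the 3 tested, the immunoglobulin light chain gene Igkc, was called higher, at a log2 difference of 1.55 (limma adjusted p = 0.0130). The part of these cells in the differences was not tested.

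After ethanol, limma called none of the 10 genes different between genotypes, against 9.88% of all tested genes. At an unadjusted limma p under 0.05 there was 1, Xbp1, against 3246 of all 13256 tested genes. EdgeR and DESeq2 called Xbp1. Wild type libraries of Xbp1 averaged 6754 ± 3526 (SD, n = 4) and libraries labelled knockout 3470 ± 531. Library 3 of wild type, at 3143, was within the second range, and the other 3 were above it. The log2 difference was -0.82 ± 0.26 SE (limma adjusted p = 0.0538; edgeR adjusted p = 0.0301; DESeq2 adjusted p = 0.00399). It passed without wild type ethanol library 3 (adjusted p = 0.00114). With ethanol libraries 3 and 4 alone it was -0.38 (adjusted p = 0.486), and without libraries 1 and 4 labelled knockout it was -0.93 (adjusted p = 0.160).

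Herpud1 was the other gene with a call under some fits. It read 6866, 9372, 3274 and 3866 in wild type after ethanol and 3918, 5607, 2335 and 2708 in libraries labelled knockout. In each genotype library 2 was the highest and library 3 the lowest. The log2 difference was -0.64 ± 0.35 SE (limma adjusted p = 0.279). With the replicate number as a block in these 2 groups, the same difference passed (adjusted p = 0.00839), and it was then the only one of the 10 to do so. Without libraries 1 and 4 labelled knockout it was -0.56 (adjusted p = 0.594), and none of the 10 passed. The remaining 8 genes had log2 differences from -0.32 for Manf to 0.00 for Sdf2l1. With ethanol libraries 3 and 4 alone 7 of the 10 differences turned positive, the largest being Creld2 at 0.65 (adjusted p = 0.385). For no gene of the 10 did the 2 ethanol groups separate, while 15.7% of all tested genes separated in either direction. All 10 Kupffer cell and macrophage markers were called higher in libraries labelled knockout here.

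The difference between the ethanol effects of the genotypes was tested by itself. Limma called none of the 10, against 0.347% of all tested genes. At an unadjusted limma p under 0.05 there were 2, Creld2 and Dnajb9, against 1772 of all 13256 tested genes. All 10 point estimates were negative, against 6657 of the 13256, and ran from -1.44 for Creld2 to -0.15 for Herpud1. A negative value means a smaller rise or a larger fall in libraries labelled knockout. The median was -0.61, and 0.00 over all tested genes. Creld2 had -1.44 ± 0.45 SE (limma adjusted p = 0.180), Sdf2l1 -1.02 ± 0.48 (adjusted p = 0.377) and Dnajb9 -0.82 ± 0.26 (adjusted p = 0.184).

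DESeq2 called Creld2 in this test (adjusted p = 0.0273) and edgeR called none. Without wild type ethanol library 3, both Creld2 (adjusted p = 0.0398) and Dnajb9 (adjusted p = 0.0423) passed. With ethanol libraries 3 and 4 alone, the estimate for Creld2 was -0.63 (adjusted p = 0.821) and those of Pdia4 and Calr turned positive, at 0.19 and 0.02. Without libraries 1 and 4 labelled knockout the estimates were -1.44 for Creld2 (adjusted p = 0.481), -0.86 for Dnajb9 (adjusted p = 0.446) and -0.88 for Sdf2l1 (adjusted p = 0.679), and all 10 were negative. The comparisons share groups, so their values are not independent: a higher control level in libraries labelled knockout lowers both the ethanol effect in them and this difference. For Creld2 the 4 group means were 359.6 and 882.0 on control feeding and 1450 and 1173 after ethanol, wild type given before the libraries labelled knockout in each pair. For Hspa5 they were 10783 and 13911, then 22999 and 20034.

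Within groups the genes mostly rose and fell together from library to library. Each gene's log2 values were centred on its group means and set against the mean of the other 9, scaled to equal spread, over 16 libraries; all genes of a library come from the same RNA and share its size factor. Pearson's r was 0.98 for Hspa5 (Spearman's rho 0.96), 0.94 for Hsp90b1 and Manf, 0.93 for Creld2, 0.91 for Pdia4, 0.89 for Dnajb9 and 0.88 for Calr. Herpud1 followed least, at 0.39 (rho 0.26). These are descriptions, with no p, since the genes were chosen with results of these libraries known.

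The libraries farthest from the median were wild type ethanol libraries 1 and 3, with mean scaled deviations of 1.68 and -1.81. Without them r stayed at 0.76 or above for the same 7 genes over 14 libraries, with 0.95 for Hspa5. For Xbp1 it went from 0.74 to 0.06 and for Sdf2l1 from 0.71 to 0.22, so for these genes the relation rests on those libraries. Over the 45 pairs of genes the median r was 0.74, with 37 above 0.5 and none negative, and it was 0.36 without the same libraries. The pair with the highest r was Hspa5 and Manf, at 0.96.

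**Figure D4:**
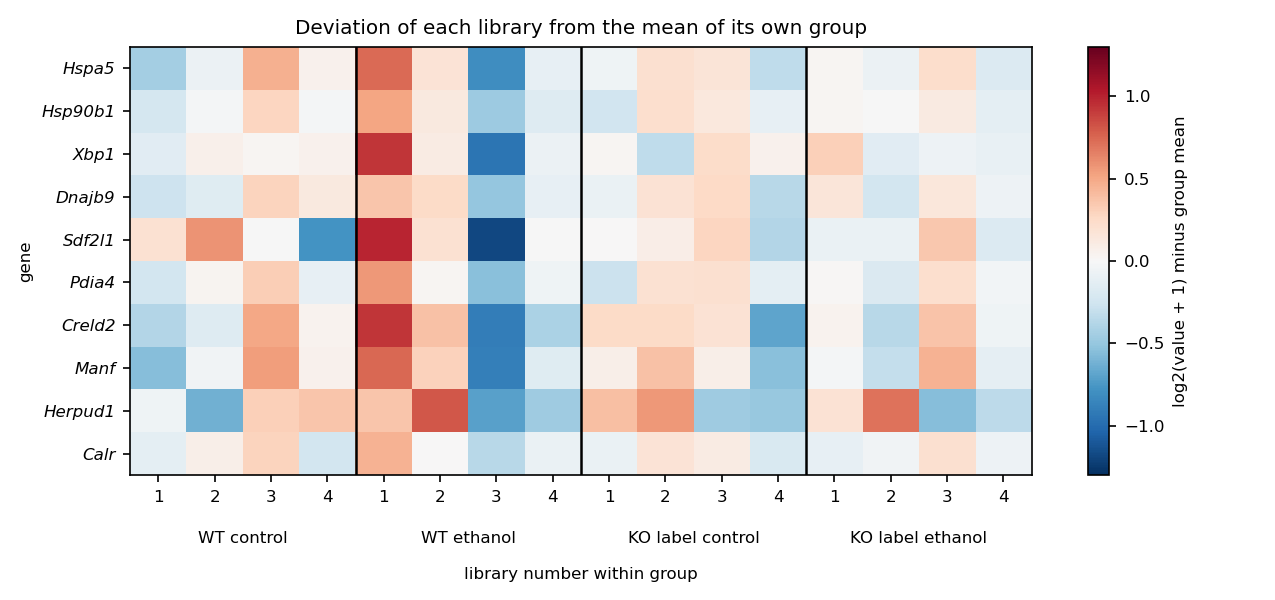
Deviation of log2(value + 1) from the mean of its own group (colour scale) for the 10 genes (rows) in each of the 16 libraries (columns, by group). Wild type ethanol library 1 is above its group mean and library 3 below it for all 10 genes, and Herpud1 departs from the other rows in ethanol libraries 1 and 2 and in most other groups.

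After ethanol, the spread between libraries was larger in value in wild type. The SD was 42.7% of the mean for Hspa5 in wild type after ethanol and 12.3% in libraries labelled knockout. For Xbp1 the shares were 52.2% and 15.3%, for Creld2 54.5% and 20.8%, and for Calr 24.3% and 10.2%. This larger share in wild type held for all 10 genes in their values, and whether the spreads differ was not tested. Because the genes mostly moved together, they are not 10 independent cases. Wild type ethanol libraries 1 and 3 lay farthest out, with mean scaled deviations of 1.68 and -1.81. How often the same held over all tested genes was not counted. On control feeding the shares for Hspa5 were 26.0% in wild type and 16.4% in libraries labelled knockout. There the genes did not all go 1 way. The share was larger in libraries labelled knockout for Xbp1 (6.8% in wild type and 15.7%), Dnajb9 (17.9% and 18.8%) and Herpud1 (28.3% and 37.4%). It was larger in wild type for the other genes, by little for Hsp90b1 (14.9% and 14.8%).

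Levels were compared between genes per kilobase of exon, from GENCODE gene models on GRCm38. In wild type control libraries Calr stood highest, at 3140 ± 510 (SD, n = 4) normalised reads per kilobase, followed by Hspa5 at 2550 ± 664, Hsp90b1 at 2014 ± 300, Herpud1 at 2002 ± 567, Xbp1 at 1129 ± 76.9, Pdia4 at 1127 ± 194, Dnajb9 at 472.5 ± 84.4, Manf at 359.7 ± 112, Creld2 at 263.3 ± 73.0 and Sdf2l1 at 161.9 ± 58.3. Neighbours in this order overlapped in their ranges over libraries, except Herpud1 with Xbp1 and Pdia4 with Dnajb9. The Manf value divides by 3524 bases of exon, from a gene model that overlaps exons of Dcaf1 and Rbm15b, so its place is uncertain. After ethanol in wild type Hspa5 averaged 5438 ± 2323 per kilobase and Calr 3037 ± 738. Creld2, which stood below Dnajb9 and Manf on control feeding, then averaged 1061 ± 579 against 768.3 ± 197 for Dnajb9 and 599.2 ± 267 for Manf. Recovered read numbers were never low: the lowest single value was 95 reads, for Sdf2l1.

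Some of the 10 genes overlap others on the same or the opposite strand, and how reads in the shared stretches were assigned is not given in the sources used. Hsp90b1 (chromosome 10, 86690209 to 86705509, minus strand) overlaps 1810014B01Rik on the plus strand and Gm15344 on its own strand, with mean levels of 38.1 and 43.1 against 10500 for Hsp90b1. Manf (chromosome 9, 106838312 to 106891979, minus strand) overlaps Dcaf1 on the plus strand and Rbm15b on its own, with mean levels of 383.5 and 224.6 against 1676 for Manf. Herpud1 (chromosome 8, 94386438 to 94395377, plus strand) overlaps the antisense gene Gm15890, at 6.22 against 4391. Xbp1 is on chromosome 11 (5520659 to 5525893, plus), Dnajb9 on 12 (44205559 to 44210326, minus), Sdf2l1 on 16 (17130138 to 17132383, minus), Pdia4 on 6 (47796141 to 47813430, minus) and Calr on 8 (84841850 to 84846934, minus), all as protein-coding genes.

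The wider pathway was read from 94 other genes in 8 lists by role, of which 93 were tested. With ethanol in wild type 15 were called higher and 11 lower (18.9% and 19.0% of all tested genes), with a median log2 change of 0.02. Of 11 ER chaperones and cochaperones outside the 10, none was called higher and 2 lower, Canx (-0.30) and Sdf2 (-0.38). Hyou1, a large chaperone that exchanges BiP's nucleotide, had 0.46 (adjusted p = 0.134), and Dnajb11, a BiP cochaperone, 0.32 (adjusted p = 0.156). Of 12 disulphide isomerases and oxidases, 1 rose, the oxidase Ero1a (0.76), and 4 fell, among them Txndc5 (-0.70) and the paralogue Ero1b (-0.54).

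Degradation genes held 2 that rose strongly. Derl3, a channel component of ER-associated degradation, read 28.6, 28.8, 5.67 and 20.8 in wild type controls and 188.0, 51.3, 60.4 and 56.8 after ethanol, 4.07-fold higher (limma adjusted p = 0.00247). The groups did not overlap. Syvn1, the ubiquitin ligase HRD1, was 2.06-fold higher (adjusted p = 0.000463). Of the 16 genes of this list 2 rose and 2 fell. Among sensors and transducers 4 of 8 rose: Creb3l3, a liver-enriched relative of ATF6, by 1.79-fold (adjusted p = 2.06e-06), Mbtps2 by 0.46, Atf6 by 0.44 and Creb3l2 by 0.59 on the log2 scale. Ern1, which encodes IRE1, had -0.07 (adjusted p = 0.864) and Eif2ak3, which encodes PERK, -0.06 (adjusted p = 0.737).

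The genes listed as outputs of the PERK arm all rose with ethanol in wild type, 5 of 5. Trib3 rose 10.7-fold, Ddit3 4.97-fold, Chac1 4.66-fold, Atf4 1.88-fold and Ppp1r15a 1.87-fold. Whether PERK itself was active was not tested. Single libraries moved some of these sizes: without ethanol library 4 the log2 change went from 3.42 to 2.81 for Trib3 and from 2.31 to 1.67 for Ddit3, and without ethanol library 3 it went from 2.22 to 3.25 for Chac1. For Ddit3 the order of libraries was not that of Hspa5 or Creld2. Ddit3, which encodes the transcription factor CHOP, read 389.4, 296.0, 159.8 and 1577 after ethanol, highest in library 4, where Hspa5 and Creld2 lay below libraries 1 and 2. Chac1 did not pass without ethanol library 1 or 4 (adjusted p at most 0.0607), nor Ppp1r15a without control library 1 or 2 (adjusted p at most 0.0581). Translocation genes held none higher and 2 lower of 16, N-glycosylation genes 1 higher (Stt3b, 0.76) and 1 lower (Ost4, -0.45) of 12, and ER to Golgi transport genes 2 higher (Mcfd2, 0.38; Sec24d, 0.43) and none lower of 13. Of the 26 calls, 16 passed whichever library was left out. The 10 that did not were Canx, Chac1, Creb3l2, Edem2, Ost4, Pdia5, Ppp1r15a, Sec24d, Sec61b and Sec62, with an adjusted p of up to 0.156.

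In libraries labelled knockout 7 of the 93 rose with ethanol and 14 fell (10.2% and 9.01% of all tested genes), with a median of -0.15. The genes that rose were Atf6, Creb3l3, Ero1a, Stt3b, Atf4, Ppp1r15a and Trib3, the last 4.48-fold. Those that fell were spread over 6 lists and included Txndc5 (-0.68), Ero1b (-0.70), Sec61b (-0.65), Kdelr2 (-0.62), Derl2 (-0.62), Spcs2 (-0.57), Sdf2 (-0.53), Vcp (-0.49), Pdia6 (-0.47) and Rpn1 (-0.43). Syvn1 and Derl3 were not called. Of the PERK arm outputs, Ddit3 and Chac1 were not called either. All 5 outputs had a positive log2 change, with a median of 1.23. In all 5, every ethanol library lay above every control, as in 11.7% of all tested genes. With libraries 1 and 4 of this group left out, which leaves 2 ethanol libraries, 13 of these 21 calls no longer passed (adjusted p 0.0514 to 0.309). Among them were 4 of the 7 genes that rose, Atf6, Atf4, Ppp1r15a and Stt3b. The 8 that still passed were Creb3l3, Ero1a and Trib3, which rose, and Derl2, Erp44, Sdf2, Txndc5 and Vcp, which fell. Of these 21 calls, 13 passed whichever single library was left out, and those of Atf4, Edem2, Pdia6, Rpn1, Sec11c, Sec13, Sec61b and Stt3b did not (adjusted p up to 0.126).

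Between genotypes on control feeding the median log2 difference of the 93 was 0.04, and 3 were called higher in libraries labelled knockout and none lower (6.40% and 5.24% of all tested genes): Derl3 4.67-fold (adjusted p = 0.00491), Ddit3 3.53-fold (adjusted p = 0.0144) and Syvn1 1.52-fold (adjusted p = 0.0466). Derl3 read 126.4, 57.8, 128.0 and 62.1 in libraries labelled knockout, above all 4 wild type controls, as was Ddit3 at 465.2, 253.7, 265.2 and 235.0. The Syvn1 call did not pass in 10 of 18 other fits (adjusted p 0.0193 to 0.12 over all 18). After ethanol 76 of the 93 differences were negative, against 7080 of all 13256 tested genes, with a median of -0.20 (-0.02 over all tested genes). An unadjusted limma p under 0.05 was found for 21 of the 93, against 3246 of the 13256. Past the threshold, Eif2ak3 was higher (0.47, adjusted p = 0.0348), and Cnpy2 (-0.38, adjusted p = 0.0177) and Kdelr2 (-0.48, adjusted p = 0.0296) were lower, against 6.13% and 3.75% of all tested genes. Each of these 3 missed the threshold in some fit with 1 library left out, with wild type ethanol library 1 in each case among them (adjusted p up to 0.114). With the replicate number as a block in the ethanol groups Cnpy2 passed (adjusted p = 0.0323), and Eif2ak3 (adjusted p = 0.0709) and Kdelr2 (adjusted p = 0.0548) did not. Without libraries 1 and 4 labelled knockout none of the 3 passed (adjusted p 0.0806 to 0.299). In the test of the difference of the ethanol effects none of the 93 was called. An unadjusted limma p under 0.05 was found for 9 of them, against 1772 of all 13256 tested genes. Of the 93, 80 were negative, with a median of -0.18, against 6657 of the 13256.

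**Figure D5:**
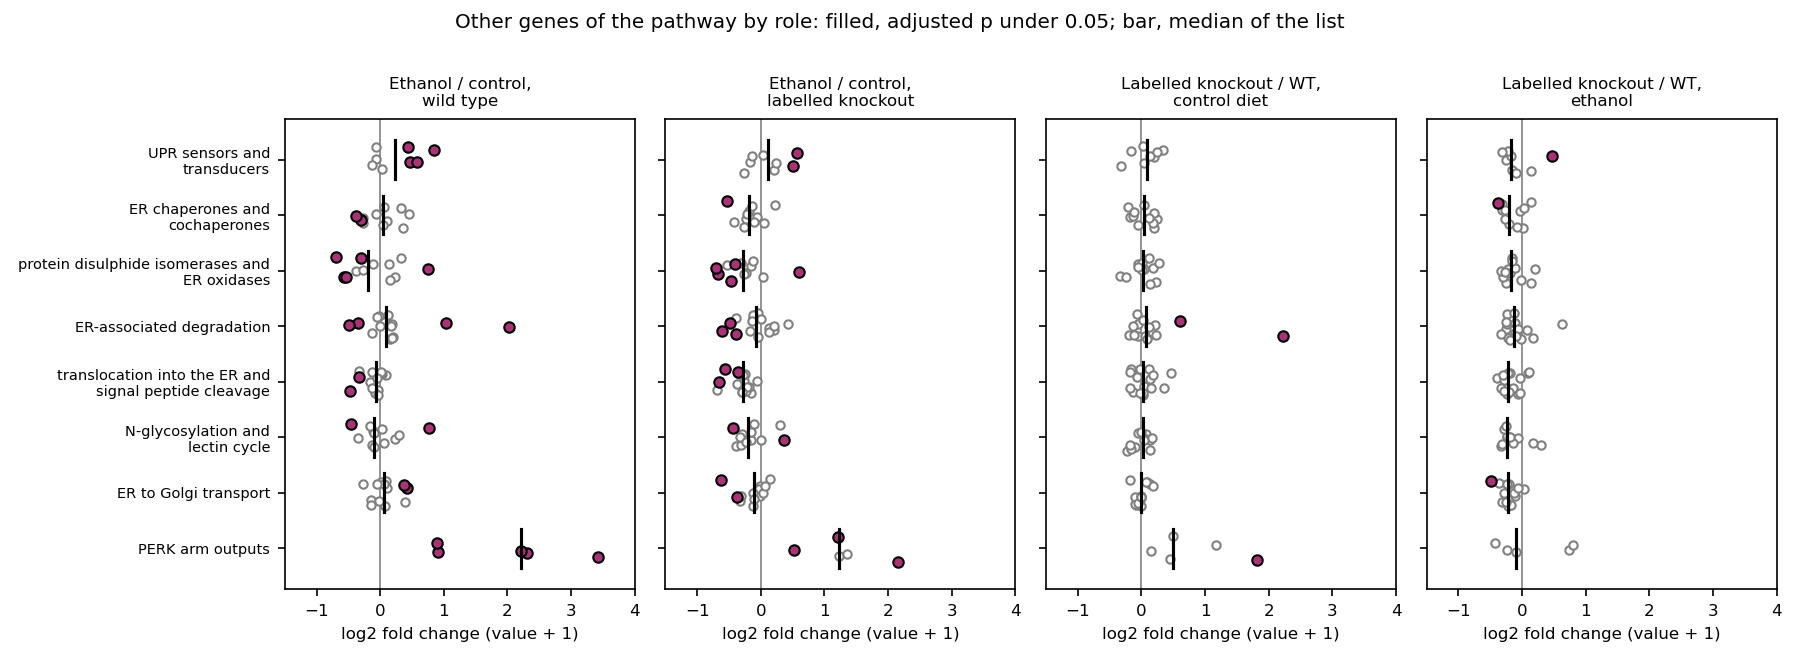
Log2 fold changes on the scale of value + 1 (horizontal axis) of the 93 other pathway genes by role (rows) in 4 comparisons; filled points have a limma adjusted p under 0.05 and the bar is the median of the list. All 5 points of the PERK arm are filled for ethanol in wild type, and most of the filled points of the chaperone, isomerase and translocation rows lie below 0 in both ethanol panels.

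Outside the 10, the genes whose group-centred values were most like their mean over the 16 libraries were Chmp4b (r = 0.97), Tmed9 (0.94), Dnajb11 (0.93), Hyou1 (0.93), Creb3 (0.92), Pdia3 (0.90), Spcs2 (0.90) and Ssr1 (0.90), the first 8 of 13246. Without wild type ethanol libraries 1 and 3 these were 0.73 to 0.95. Of the 100 highest, 17 came from the 93 genes of the wider pathway. With ethanol in wild type Dnajb11, Hyou1, Creb3, Pdia3, Spcs2, Ssr1 and Tmed9 were not called, and Chmp4b rose by 0.39 on the log2 scale (limma adjusted p = 0.0295).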

How the data were processed

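Liver RNA was sequenced as single reads of 75 bp. The submitters' processing notes name GRCm38, HTSeq, edgeR and HISAT2 2.1.0.13. Not given in the sources used here: the annotation release, the strand setting, and what made the size factors. The deposited signal is a read count that the authors divided by a size factor per library (0.81 to 1.26): 100% of values came out whole within 0.01 of a read, and depth was 11425136 to 13864862 reads. Coordinates and exon lengths are from GENCODE on GRCm38, matched for 27242 of 27288 identifiers, with 46 unmatched. Log2(value + 1) entered limma 3.58.1 (R 4.3.3) with a mean-variance trend, 1 fit of 4 group means giving 5 contrasts over the 13256 genes whose mean was 10 or more; the code was tested on simulated data. Fold changes are on that scale and understate changes of low genes. On the recovered reads, edgeR 4.0.16 (quasi-likelihood) and DESeq2 1.42.0 were alternatives. These called 1527, 1281, 5013, 2679 and 30 genes (edgeR) and 1924, 1704, 5150, 3028 and 265 (DESeq2), against 1544, 1310, 5032, 2543 and 46 with limma, for genotype on control feeding, genotype after ethanol, ethanol in wild type, ethanol in libraries labelled knockout, and the difference. Other alternatives were the pseudocount (0.25, 4), the filter (none, 50), no trend, TMM factors, only the groups compared, the replicate block, each library left out, and sets of ethanol libraries left out. Same-numbered libraries of the 2 ethanol groups had r of 0.102 to 0.246, against -0.125 to 0.036 in the other comparisons. Differently numbered ethanol libraries reached 0.199, and same-numbered ones were each other's best match only for numbers 2 and 3. For number 4 the same-numbered r was 0.102, and another number gave 0.179. A pairing by number is thus not established, and the labels give no meaning to the numbers. A block fit of those groups was added after seeing the data. The 10 genes and all lists were chosen with earlier results of these data known. Named genes were the 10, for each role list and comparison the called genes with the smallest p (up to 3), Ern1, Atf6, Eif2ak3, Atf4 and Ddit3, and the 8 genes of most like pattern; Hyou1 and further called genes of the lists were named after their values were seen.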

Additional observations from a re-analysis of the deposited data

Results flagged for a closer look

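Each group of 4 libraries was searched for a value far from the other 3, for the 10 genes in the 4 groups. Of these 40 sets, 3 held such a value, and chance gives about 1 in 20. Xbp1 in library 1 labelled knockout after ethanol read 4257, against 3103 to 3293 in the other 3. This is the library with exocrine pancreas transcripts, whose part in the value was not tested. Sdf2l1 in library 3 labelled knockout after ethanol read 428.4, against 296.4 to 315.7. Creld2 in library 4 labelled knockout on control feeding read 528.6, against 971.4 to 1016, and still lay above the highest wild type control of 498.0.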

How the results depend on the processing

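The number of the 10 genes called depended most on which ethanol libraries were used. For ethanol in wild type (6 genes), the count was 4 to 7 with 1 library left out and 1 with ethanol libraries 3 and 4 alone. For genotype on control feeding (2 genes) it was 0 to 2 with 1 library left out, and 1 both with no trend and with the replicate block. For genotype after ethanol (0 genes) it was 0 to 1 with 1 library left out, and 1 with the replicate block in the ethanol groups only, with ethanol libraries 1 and 2 alone, with edgeR and with DESeq2. For ethanol in libraries labelled knockout (0 genes) it was 0 with any library left out and 1 with only the groups compared. For the difference of the ethanol effects (0 genes) it was 0 to 2 with 1 library left out, 2 with ethanol libraries 1 and 2 alone and 1 with DESeq2. The replicate block over all 16 libraries gave 6, 1, 0, 0 and 0 genes in the same order, and it lost no other call of the 10. The cause of these shifts was not tested. Leaving out libraries also leaves fewer samples in the fit.

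Among the values of single genes of the 10 under other settings, 993 kept direction and side of the threshold, 27 fell short of it, 18 newly passed and 52 changed sign; no value past the threshold changed sign. For genotype after ethanol, libraries 3 and 4 alone gave Hspa5 0.38, Hsp90b1 0.061, Dnajb9 0.15, Pdia4 0.33, Creld2 0.65, Manf 0.37 and Calr 0.27; Sdf2l1 was -0.0041 with TMM factors, -0.68 with libraries 1 and 2 alone, -0.13 with edgeR and -0.16 with DESeq2; and Calr was 0.059 without libraries 1 and 4 labelled knockout. For ethanol in wild type, libraries 3 and 4 alone gave Pdia4 -0.20 and Herpud1 -0.34, and libraries 1 and 2 alone gave Calr 0.16. For ethanol in libraries labelled knockout, Xbp1 was 0.076 with libraries 1 and 2 alone and 0.0021 with edgeR, Sdf2l1 was 0.091 without libraries 1 and 4, and libraries 3 and 4 alone gave Sdf2l1 0.046, Manf 0.039 and Herpud1 -0.36. For the difference, libraries 3 and 4 alone gave Pdia4 0.19 and Calr 0.020.

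With 1 library left out, values that changed sign spanned these log2 ranges. For genotype after ethanol they were -0.37 to 0.14 for Hspa5, -0.39 to 0.33 for Sdf2l1, -0.23 to 0.14 for Pdia4, -0.46 to 0.15 for Creld2 and -0.15 to 0.12 for Calr. For ethanol in wild type they were -0.10 to 0.27 for Pdia4, -0.027 to 0.48 for Herpud1 and -0.21 to 0.057 for Calr. For ethanol in libraries labelled knockout they were -0.11 to 0.077 for Xbp1, -0.17 to 0.052 for Sdf2l1, -0.31 to 0.0014 for Manf and -0.15 to 0.28 for Herpud1. Xbp1 spanned -0.17 to 0.023 for genotype on control feeding and Herpud1 -0.39 to 0.12 for the difference. The 10 genes held 95 reads or more in every library; how depth or the number of libraries limits the calls was not tested.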
